A study of Caenorhabditis elegans with 2 samples.

Results

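The 54 genes described here direct cell fate in the early embryo of the nematode Caenorhabditis elegans, and the measurement is the binding of a tagged B0310.2 protein near their transcript 5' ends. They were listed by name for their known roles, from the maternal factor skn-1 to the Hox genes, and are 54 of the 19973 protein-coding genes on the 6 nuclear chromosomes. For each gene the strongest region was taken with its summit between 1000 bp upstream and 300 bp downstream of any transcript 5' end. That region is called the gene's promoter region below, whether or not it passed a threshold. Strength is the signal value that the authors deposited with each region, and rank 1 is the strongest region of a list.

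The samples were 2 biological replicates of a single group, whole early embryos of mixed sex taken 0 h after the culture was bleached. The strain, OP642, carries the unc-119 allele tm4063 and the transgene wgIs642, which makes B0310.2 with GFP and FLAG at its C-terminal end, and chromatin was precipitated with an antibody to GFP. The maps therefore show a tagged transgene product averaged over the whole embryo, so that a site occupied strongly in few cells and one occupied weakly in many cannot be told apart. The deposited lists held 30000 regions, background included, for each replicate and for the pooled replicates, and a further list held the 642 pooled regions that passed the authors' threshold on the irreproducible discovery rate (IDR), which scores how stable the rank of a region is between replicates. No read counts came with the lists, so depth is unknown and values are given without counting intervals.

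In the worm, the maternal transcription factor SKN-1 starts the endomesoderm programme in the blastomere EMS, where it turns on the GATA factor genes med-1 and med-2. The MED proteins act on end-1 and end-3 together with Wnt and MAPK signalling, which works through the TCF factor POP-1 and its coactivator SYS-1. The END proteins in turn switch on elt-2 and elt-7, which maintain the intestinal fate. Notch signals between blastomeres, T-box genes, GATA and helix-loop-helix genes of single lineages and the Hox genes divide the other cells among pharynx, muscle, epidermis and neurons.

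None of the 54 genes had a promoter region among the 642 IDR peaks. Over all protein-coding genes 1.86% had one, a share that comes to 1.00 gene in a list of this size, so the absence of peaks lies close to the background and is not a result about these genes. Weaker regions were present. A promoter region was in the pooled list for 28 of the 54 genes (51.9%), against 38.4% of all protein-coding genes.

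The regions of the pooled list add up to 14.2% of the genome's length, so presence in it is a weak statement and the rank says more. The top 2000 regions included promoter regions of 4 of the 54 genes (7.41%, against 4.99% of all protein-coding genes). The top 5000 included those of 10 genes (18.5%, against 10.1%), and the top 10000 those of 18 (33.3%, against 17%). Genes for cytosolic ribosomal proteins, shown as a reference with many peaks, had a promoter IDR peak at 13 of 78 genes (16.7%) and a promoter region of any rank at 65 (83.3%). At these 3 limits and over the whole list the share of the 54 regulators lay between that of the ribosomal protein genes and that of all genes. These are counts with no test, since the genes were listed with earlier results of these data known.

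**Figure D1:**
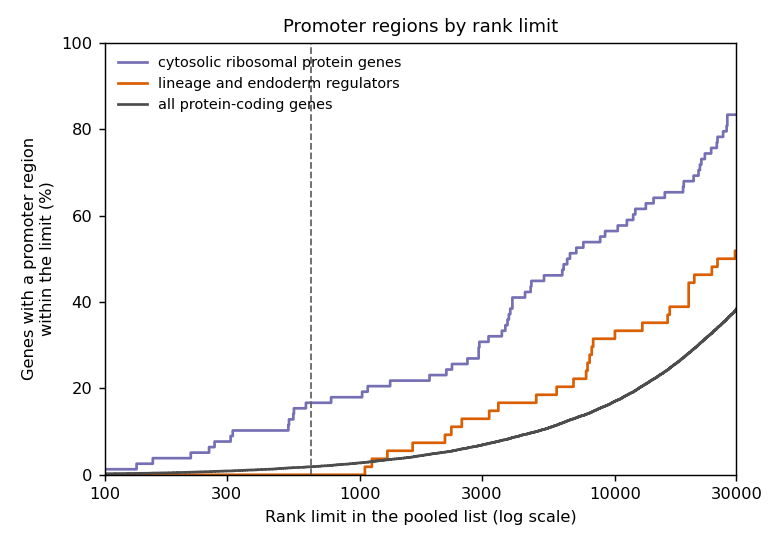
Share of genes (y axis, percent) with a promoter region within a given rank of the pooled list (x axis, log scale) for the 54 regulators, all 19973 protein-coding genes and 78 ribosomal protein genes, with the dashed line at the last IDR peak, rank 642. The regulators stay at 0 up to the dashed line and reach 18.5% at rank 5000 and 51.9% at the end of the list, against 10.1% and 38.4% of all genes.

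The share also moved with the number of transcript 5' ends of a gene, each of which can widen the window searched. Of the 32 regulators with a single annotated 5' end, 11 (34.4%) had a promoter region in the pooled list, against 32.4% of all genes with a single 5' end. Of the 22 regulators with several, 17 (77.3%) had one, against 54.4% of all genes with several. The distance from the background was thus small in the first group and larger in the second. The windows of the 54 genes held 0.562 summits per kb of sequence, those of all protein-coding genes 0.351 and the whole genome 0.299.

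The summit sequences of the 6 highest-ranking promoter regions are shown first, because they are the regions that come closest to the IDR peaks, and with them the intron peak of lit-1, the only IDR peak whose summit lay inside one of the 54 genes. Each is the 101 bases centred on the summit, read 5' to 3' on the plus strand of the RefSeq WBcel235 assembly, which is ce11. Capitals mark matches to the transcription factor motifs named further below.
elt-6, chrIV:1918066-1918166: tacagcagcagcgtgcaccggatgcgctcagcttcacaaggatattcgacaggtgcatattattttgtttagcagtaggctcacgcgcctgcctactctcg
hlh-14, chrII:5738687-5738787: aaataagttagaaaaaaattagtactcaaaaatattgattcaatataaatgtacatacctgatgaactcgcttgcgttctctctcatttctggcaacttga
skn-1, chrIV:5660700-5660800: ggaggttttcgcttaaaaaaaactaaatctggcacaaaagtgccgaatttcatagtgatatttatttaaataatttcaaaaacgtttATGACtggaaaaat
pha-4, chrV:20756575-20756675: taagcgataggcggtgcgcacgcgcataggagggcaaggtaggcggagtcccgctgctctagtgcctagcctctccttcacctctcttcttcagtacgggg
tbx-38, chrIII:11786173-11786273: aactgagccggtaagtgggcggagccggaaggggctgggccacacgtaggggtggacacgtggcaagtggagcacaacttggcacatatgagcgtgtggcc
wrm-1, chrIII:5723704-5723804: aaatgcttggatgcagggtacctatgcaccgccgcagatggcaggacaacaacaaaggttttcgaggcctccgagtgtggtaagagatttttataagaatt
lit-1 intron peak, chrIII:13721252-13721352: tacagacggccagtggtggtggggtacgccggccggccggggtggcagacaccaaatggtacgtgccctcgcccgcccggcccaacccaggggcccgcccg
One capitalised match is present in these 7 windows, the ATGAC of skn-1, which is the core of SKN-1 sites, GTCAT, on the other strand. The windows of pha-4 and tbx-38 had 61.4% and 63.4% G+C and that of the lit-1 intron peak 75.2%, while those of skn-1 and hlh-14 had 27.7% and 29.7%.

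The replicates listed similar numbers of these genes. Replicate 1 had a promoter region for 28 of the 54 (51.9%, against 38% of all protein-coding genes) and replicate 2 for 27 (50%, against 38.5%). Both lists had one for 21 genes (38.9%, against 24.7%), while 7 genes had one in replicate 1 only and 6 in replicate 2 only. Of all 19973 protein-coding genes, 7585 had one in replicate 1, 7687 in replicate 2 and 4937 in both. Many genes were thus in 1 list only there as well, and the 7 and 6 are not a result about these genes. The strongest pooled region itself overlapped a region of both replicates at 19 genes (35.2%, against 22.6%). No promoter region was in any of the 3 lists for 20 genes (37%, against 47.0%).

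The replicates shared little of the order of the genes, and the value moved with how regions were matched. At the 19 genes whose strongest pooled region overlapped regions of both, Spearman's rho between the ranks of those regions in replicate 1 and replicate 2 was 0.035. Matched in the same way, the strongest promoter regions of all genes below the IDR peaks gave 0.281 (n = 3628). With the strongest promoter region of each replicate taken by itself, rho over the 21 genes with one in both was 0.275. These values describe regions chosen by strength from the same libraries, and no test was made of them. A promoter region of 1 gene, elt-6, reached the top 642 of replicate 1 (1.85%, against 1.52% of all genes), and none reached the top 642 of replicate 2, against 1.91% of all genes.

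**Figure D2:**
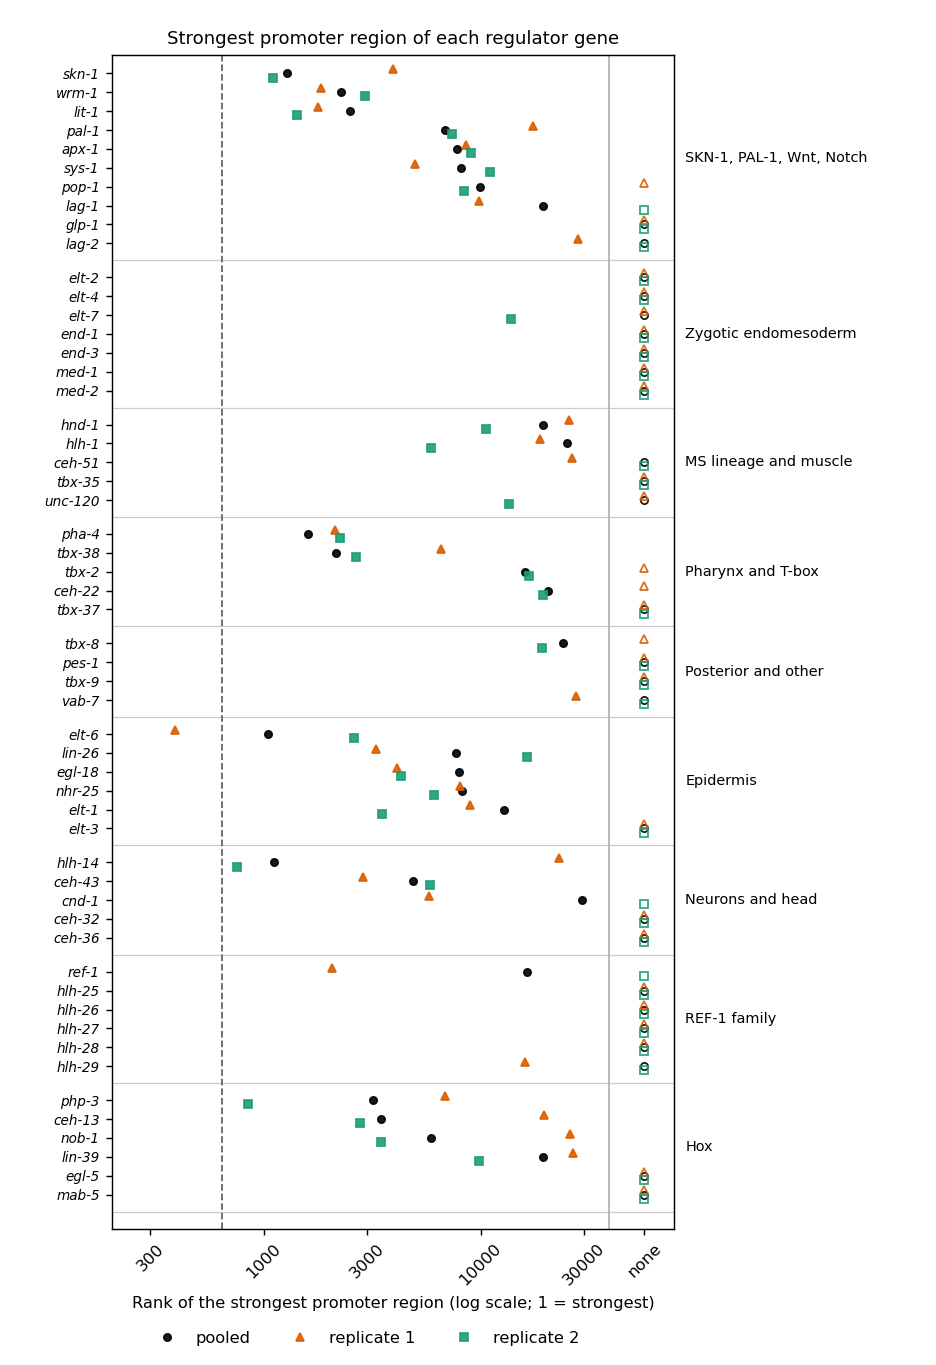
Rank of the strongest promoter region of each of the 54 genes (x axis, log scale) in the pooled list (black circles), replicate 1 (orange triangles) and replicate 2 (green squares), grouped by role, with open symbols at the right for genes with no region in that list and a dashed line at rank 642. A single symbol, elt-6 in replicate 1 at rank 389, lies left of the line, and 6 of the 7 zygotic endomesoderm genes have open symbols in all 3 lists.

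Among the maternal and signalling genes, 8 of 10 had a promoter region in the pooled list and 3 were in the top 5000, against 38.4% and 10.1% of all protein-coding genes. Of all genes with several 5' ends, 54.4% were in the pooled list. The maternal and signalling genes' windows were wide, with a median of 2609.5 bp against 1301 bp over all protein-coding genes. The highest was skn-1, the maternal activator of the endomesoderm programme. Its region, chrIV:5660512-5660987 in ce11, ranked 1280 in the pooled list with a signal of 110.7, where the weakest IDR peak has 139.6. The same region ranked 3954 in replicate 1 and 1104 in replicate 2, below the top 642 in both. The summit was intergenic, 366 bp upstream of the nearest of the gene's 4 annotated 5' ends, and lay in the promoter window of no other protein-coding gene. A further region in an intron of skn-1 ranked 2234 with a signal of 95.5.

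The partners WRM-1, a beta-catenin, and LIT-1, a Nemo-like kinase, together phosphorylate POP-1 in response to Wnt and MAPK signals. Their genes had similar pooled ranks, taken from windows of different width. The wrm-1 region was the strongest of 3 in 2090 bp and the lit-1 region the strongest of 7 in 5484 bp. The wrm-1 region, chrIII:5723516-5723991, ranked 2270 in the pooled list with a signal of 95.1, 1827 in replicate 1 and 2920 in replicate 2. Its summit lay in a coding exon of wrm-1, 115 bp downstream of the nearest of 2 annotated 5' ends. The lit-1 promoter region, chrIII:13718577-13719052, ranked 2497 with a signal of 92.6, 1771 in replicate 1 and 1430 in replicate 2. Its summit lay in an intron of lit-1, 581 bp upstream of the nearest of 7 annotated 5' ends. Both regions thus ranked between 1430 and 2920 in all 3 lists, although the replicate 1 summit at lit-1 was 171 bp away.

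A separate region in lit-1, outside the promoter windows, was an IDR peak. It covered chrIII:13721064-13721539, ranked 329 in the pooled list with a signal of 184.5, and ranked 289 in replicate 1 and 367 in replicate 2. The summit lay in an intron, 1906 bp downstream of the nearest 5' end. The gene for an annotated noncoding RNA, W06F12.7, lay 144 bp from it. It was the only IDR peak with its summit between the ends of one of the 54 genes (1.85%, against 1.31% of all protein-coding genes), and this count was added after the lit-1 peak had been seen. With regions of any rank, 34 of the 54 genes (63.0%) had a pooled summit between their ends, against 45% of all protein-coding genes, and gene length was not taken into account.

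The homeodomain gene pal-1, a caudal homologue that specifies the C and D blastomeres, ranked 6878 in the pooled list with a signal of 70.0, 17529 in replicate 1 and 7414 in replicate 2. Its summit lay in a coding exon, 199 bp downstream of a 5' end. The remaining promoter regions of this class ranked between 7778 and 19486, at apx-1 (a Delta-like Notch ligand), sys-1, pop-1 and lag-1 (the DNA-binding effector of Notch). The sys-1 region overlapped a replicate 1 region of rank 1398, with its summit 207 bp away and outside the window, and ranked 11109 in replicate 2. The pop-1 region overlapped a replicate 1 region of rank 2947, whose summit fell just outside the window, and ranked 8422 in replicate 2. The lag-1 region ranked 9836 in replicate 1 and overlapped none of replicate 2. The Notch receptor gene glp-1 had a promoter region in none of the 3 lists, and the Notch ligand gene lag-2 only in replicate 1, at rank 28076. Regions inside glp-1 and lag-1, outside their promoter windows, ranked 15174 and 2761.

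None of the 7 zygotic endomesoderm genes had a promoter region in the pooled list. They are med-1 and med-2, end-1 and end-3, elt-2 and elt-7, and elt-4, a small GATA gene next to elt-2. All 3 lists lacked a promoter region for 6 of them, and elt-7 had one in replicate 2 alone, at rank 13775. With 38.4% of all protein-coding genes in the pooled list, and 32.4% of those with a single 5' end, 7 genes are few, and no test was made of this count. The windows of med-1 and med-2, which are near copies of each other, were 14.2% sequence found elsewhere in the genome as identical 31-base stretches, and how reads with several alignments were handled is not given in the sources used here.

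The nearest pooled summits to these 7 genes were outside their windows. For med-1 the nearest lay 1162 bp upstream and ranked 28046. For med-2 it lay 3261 bp downstream, in an intron of brd-1 beside a tRNA gene, and was an IDR peak, ranked 172 with a signal of 245. For end-3 it lay 1700 bp upstream, in a coding exon of aip-1, and ranked 9807. The regions near med-2 and end-3 thus lay inside other genes.

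For end-1 the nearest summit was 4629 bp downstream, in a coding exon of ric-7, and ranked 25473. For elt-7 it was 1611 bp upstream, in an intron of C18G1.9, and ranked 16620. A single intergenic region, ranked 2526 with a signal of 92.3, was nearest to both elt-2 and elt-4, at 2662 bp and 8355 bp downstream. None of these summits was within 1000 bp of the genes' 5' ends. Those nearest to med-1, end-3 and elt-7 fall inside the alternative window that reaches 2000 bp upstream. The absence of promoter regions at these 3 genes in the pooled list therefore depends on the 1000 bp limit.

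Of the 5 genes of the MS lineage and of body wall muscle, 2 had a promoter region in the pooled list, both at low ranks, against 38.4% of all protein-coding genes. These were hnd-1, the HAND factor gene, at rank 19409 and hlh-1, the MyoD homologue, at rank 25141. The hnd-1 region overlapped regions ranked 25533 in replicate 1 and 10560 in replicate 2, and the hlh-1 region overlapped regions ranked 4147 and 5899. The hlh-1 region thus stood higher in each replicate than in the pooled list, although the replicate 1 summit was 273 bp away and outside the promoter window. The muscle factor gene unc-120 had a region only in replicate 2 and the MS gene ceh-51 only in replicate 1, while tbx-35, which acts above ceh-51 in MS, had none in any list.

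For pharynx, 4 of 5 genes had a promoter region in the pooled list and 2 were in the top 5000, against 38.4% and 10.1% of all protein-coding genes. The region at pha-4, which encodes the FoxA factor that gives pharyngeal cells their organ identity, was chrV:20756387-20756862. It ranked 1601 in the pooled list with a signal of 104.1, and the overlapping regions ranked 2125 in replicate 1 and 3090 in replicate 2. Its summit lay in an intron of pha-4, 285 bp upstream of the nearest 5' end and inside the noncoding RNA gene F38A6.9.

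The T-box genes tbx-37 and tbx-38 act redundantly in Notch-dependent induction of the anterior pharynx, and their regions differed. For tbx-38 the region, chrIII:11785985-11786460, ranked 2154 with a signal of 96.3, 6570 in replicate 1 and 2659 in replicate 2. It was intergenic with its summit 162 bp upstream of the 5' end. For tbx-37 no list held a promoter region. The pharyngeal muscle genes tbx-2 and ceh-22 had regions at ranks 16055 and 20414, neither of them with a promoter region in replicate 1, and a stronger region inside tbx-2, in an intron, ranked 1777.

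Of the 4 posterior and other genes, 1 had a promoter region in the pooled list, against 38.4% of all protein-coding genes. The T-box gene tbx-8 ranked 23952 in the pooled list and had no promoter region in replicate 1, while its partner in posterior body morphogenesis, tbx-9, had none in any list. The forkhead gene pes-1 had none either. The even-skipped homologue vab-7 had a promoter region only in replicate 1, at rank 27548, although a region in one of its coding exons, 1297 bp downstream of the 5' end, ranked 1720 in the pooled list.

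Among the epidermal regulators, 5 of 6 genes had a promoter region in the pooled list, against 38.4% of all protein-coding genes and 54.4% of those with several 5' ends, which 5 of the 6 have. The highest rank of all 54 genes was that of elt-6, which with its neighbour egl-18 encodes GATA factors that maintain the epidermal seam cells. Its region, chrIV:1917878-1918353, ranked 1046 in the pooled list with a signal of 118.6, and it ranked 389 in replicate 1 and 2597 in replicate 2. The summit lay in a coding exon of elt-6, 139 bp downstream of the 5' end. The gene therefore ranked among the top 642 regions in 1 replicate and outside them in the other.

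The neighbour egl-18 ranked 7934 at its promoter, and a stronger region in an egl-18 intron, 2042 bp upstream of the nearest 5' end, ranked 1095. The zinc finger gene lin-26, needed for epithelial fate, ranked 7695, and its summit lay in a coding exon of lir-1, whose promoter window also held it. The Ftz-F1 homologue nhr-25 ranked 8201 at its promoter and 1160 in a coding exon within the gene. The GATA gene elt-1, which specifies epidermis, ranked 12797 in the pooled list and 3515 in replicate 2. It overlapped no region of replicate 1, whose strongest elt-1 promoter region was a separate one at rank 8976. For elt-3, a GATA gene of later epidermal differentiation, no list held a promoter region, and the strongest pooled region inside the gene ranked 14042.

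Of 5 regulators of neurons and head, 3 had a promoter region in the pooled list, against 38.4% of all protein-coding genes. The region at hlh-14, an Achaete-Scute homologue with proneural activity, was chrII:5738499-5738974 and ranked 1113 in the pooled list with a signal of 116.2. Its ranks in the replicates were far apart, 22918 in replicate 1 and 753 in replicate 2, so a high rank was seen in 1 replicate only. The summit lay in an intron, 158 bp downstream of the 5' end.

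The Distal-less homologue ceh-43, expressed in anterior epidermis and head neurons, ranked 4892 with a signal of 77.2 at chrIII:4449417-4449892. The overlapping regions ranked 8867 in replicate 1 and 5834 in replicate 2. A tRNA gene lay 50 bp from this summit, and ceh-43 was the only one of the 28 genes with a small RNA gene (tRNA or its pseudogenes, snRNA, snoRNA) closer than 200 bp. Another region, in an intron of ceh-43, ranked 1387. The NeuroD homologue cnd-1 had the lowest rank of all, 29465. For ceh-32 (a sine oculis homologue) and ceh-36 (an Otx homologue) no list held a promoter region, although a region inside ceh-32 ranked 8943 in the pooled list.

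The REF-1 family encodes helix-loop-helix repressors that respond to Notch in the early embryo. A single member of 6, ref-1, had a promoter region in the pooled list, against 32.4% of all genes with a single 5' end, which all 6 have. It ranked 16398 with a signal of 52.0. The region ranked 2059 in replicate 1 and was missing from replicate 2, and its summit lay inside the noncoding RNA gene T01E8.10. Of the others, hlh-29 had a region in replicate 1 alone, at rank 15958, and hlh-25, hlh-26, hlh-27 and hlh-28 had none. Repeated sequence made up 76.9% of the window of hlh-28, 73.8% of that of hlh-29, 36.1% of that of hlh-25 and 33.6% of that of hlh-27. It made up 0% of the hlh-26 window, which also lacked a region, and the median over the 54 genes was 0%. The part of repeats in the missing regions was not tested.

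Of the 6 Hox genes, which pattern the body from head to tail, 4 had a promoter region in the pooled list and 2 were in the top 5000, against 38.4% and 10.1% of all protein-coding genes. The posterior gene php-3 ranked 3200 with a signal of 86.8 at chrIII:12077585-12078060, and overlapped regions ranked 6877 in replicate 1, with its summit 428 bp away, and 843 in replicate 2. Its summit was 267 bp upstream of the php-3 5' end and lay in the 3' UTR of nob-1, the neighbouring posterior Hox gene. The labial homologue ceh-13, the anterior Hox gene, ranked 3479 with a signal of 84.9 at chrIII:7554639-7555114, 783 bp upstream of the 5' end, with ranks of 19618 and 2773. Both genes ranked higher in replicate 2.

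The nob-1 region, chrIII:12084854-12085329, ranked 5909 with a signal of 73.3 and was intergenic, 776 bp upstream of the nearest of 3 annotated 5' ends. It overlapped a region of replicate 2, at rank 3474, and none of replicate 1, whose strongest nob-1 promoter region ranked 25759. The mid-body gene lin-39 ranked 19400 in the pooled list. The other two, mab-5 and egl-5, had no promoter region in any list.

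**Figure D3:**
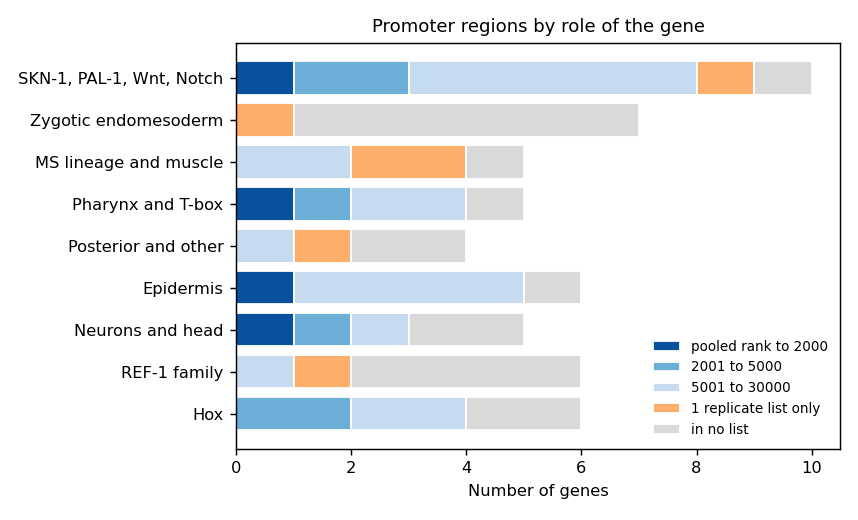
Number of genes (x axis) in each of 9 roles (y axis) by the rank of the strongest promoter region in the pooled list (blue shades), by presence in 1 replicate list only (orange) or in none of the 3 lists (grey). The zygotic endomesoderm genes have no blue bar, and the maternal and signalling genes have a promoter region in the pooled list for 8 of 10.

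Among the 28 genes with a promoter region, the median rank was 7856, with quartiles at 3024 and 17149, against 11786 over all protein-coding genes with one and 4434 over ribosomal protein genes. The order of the regulators and all genes turned with a narrower window. With summits from 500 bp upstream to 100 bp downstream the median was 12797, against 12027.5 over all genes. The weakest of the 28, cnd-1, had a signal of 39.1, next to the lowest signal of the list, 38.7.

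The summits lay upstream of the 5' end at 20 of the 28 genes and downstream at 8, with a median of 278 bp upstream. At 17 genes the summit was within 300 bp of the 5' end. By annotation 11 summits were in introns, 10 were intergenic, 4 were in coding exons, 2 in 5' UTRs and 1 in a 3' UTR. For 27 of the 28 the gene with the nearest protein-coding 5' end was the regulator itself, lin-26 being the exception. With regions counted for the nearest gene only, 33.3% of all protein-coding genes had a promoter region, against 38.4% without that rule. The counts of positions are not given over all genes, so they are not read as particular to the regulators. The regions were not placed at one common distance from the 5' end.

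**Figure D4:**
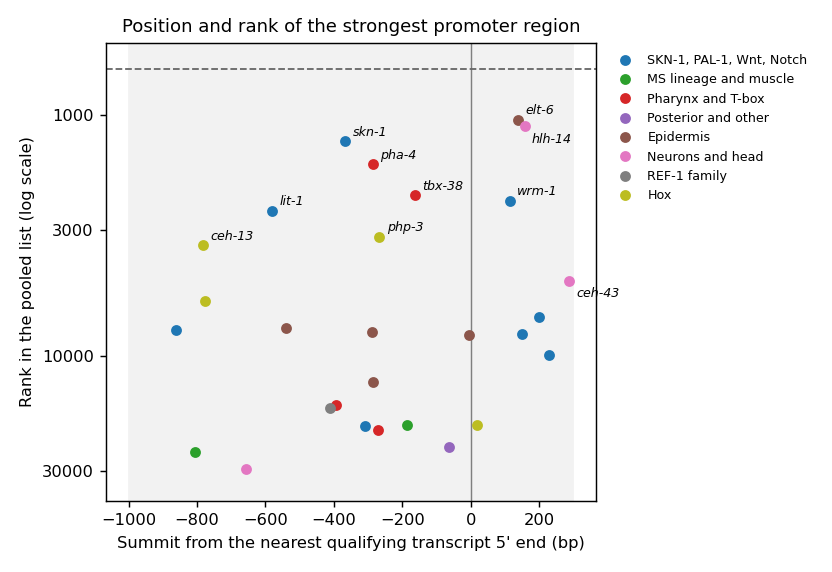
Distance of the summit from the nearest qualifying 5' end (x axis, bp, negative upstream) and rank in the pooled list (y axis, log scale, strongest at the top) for the 28 genes with a promoter region, coloured by role, with the search window shaded and a dashed line at rank 642. All points lie below the dashed line, 20 to the left of the 5' end and 8 to the right.

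The summit windows had a G+C share close to that of promoter regions in general and below that of the IDR peaks. Mean G+C was 40.6% ± 11.1 (SD, n = 28 regions) at the regulators, 40.4% ± 9.12 (SD, n = 9640) over all promoter regions of the pooled list and 48.3% ± 8.99 (SD, n = 298) over the IDR promoter peaks. Promoter regions ranked from 643 to 5000 had 42.9% ± 9.37 (SD, n = 1627). None of the 28 windows held AGAGCG or AGCGCG, nor GCGCGC, hexamers found earlier at the peaks of these same data, on either strand. Of the IDR promoter peaks 12.1%, 11.1% and 13.8% held them, and of all promoter regions 3.77%, 2.97% and 2.50%, shares at which few or no matches fall in 28 windows.

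Motifs of the regulators' own families were searched on both strands of the same windows. GATAA, the core of GATA factor sites, was in 6 of 28 (21.4%), against 19.4% of all promoter regions. GTCAT, the core of SKN-1 sites, was in 5 (17.9%, against 14.2%). CTTTGA for POP-1 was in 1 (3.57%, against 6.16%), GTGTGA for T-box factors in 2 (7.14%, against 4.21%) and the E-box CAGCTG in 1 (3.57%, against 2.51%). The MED motif GTATAC and the PHA-4 motifs TGTTTGC and TATTTGC were in none, against 0.98%, 2.45% and 1.95%. These shares are close to those of promoter regions in general.

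The LAG-1 motif GTGGGAA was in 2 windows (7.14%, against 1.38% of all promoter regions), those of lag-1 itself and of the Notch target ref-1. The windows of ref-1 and of tbx-8 (pooled rank 23952) each held 3 of the searched motifs. That of ref-1 is shown, and it was chosen after its values had been seen. Capitals again mark the matches, TTATC being GATAA on the other strand and GTCATGAC being overlapping matches to GTCAT on both strands.
ref-1, chrII:10218009-10218109: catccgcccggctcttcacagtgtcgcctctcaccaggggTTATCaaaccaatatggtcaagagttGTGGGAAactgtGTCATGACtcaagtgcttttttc
The regions of ref-1 and lag-1 were weak, at pooled ranks 16398 and 19486, and each was missing from replicate 2. A match describes the letters in the window and does not show binding of LAG-1.

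Genes of the same pathways outside the 54 were looked up from lists of 119 genes. A promoter region was in the pooled list for 79 of them (66.4%, against 38.4% of all protein-coding genes), and in the top 5000 for 29 (24.4%, against 10.1%). With a single 5' end the number was 37 of 70 (52.9%, against 32.4%). By list, 13 of 22 Wnt and MAPK genes had one, as did 8 of 13 Notch genes, 17 of 22 maternal fate and polarity genes and 18 of 22 partners and other embryonic transcription factors. Among effector genes of differentiated tissues it was 6 of 12 for intestine, 9 of 12 for muscle, 7 of 10 for epidermis and 1 of 6 for pharynx.

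IDR peaks lay at the promoters of 4 of these 119 genes, against 1.86% of all protein-coding genes. The region at mom-1, a Porcupine homologue needed for Wnt secretion, ranked 87 in the pooled list with a signal of 334.6, and 215 and 63 in the replicates. A tRNA gene lay 25 bp from its summit, and the promoter window of lev-9 held the same summit. The region at mex-1, which encodes a zinc finger protein that restricts maternal factors such as SKN-1 to their blastomeres, ranked 186 and lay also in the windows of rab-7 and W03C9.5. The other two were at lin-35, the retinoblastoma homologue, with a rank of 262 and shared with vps-51, and at epn-1, the epsin gene, with a rank of 339.

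Of all protein-coding genes, 4.99% had a promoter region in the top 2000, IDR peaks included. Besides the 4 genes with IDR peaks, 8 more of the 119 genes were in the top 2000, ranked from 648 to 2000. They were the Frizzled receptor gene cfz-2, the RNA-binding protein gene puf-3, the polarity kinase gene par-1, wdr-23 (a negative regulator of SKN-1 protein), the junction gene ajm-1, the integrin gene pat-3, the transcription factor gene tlp-1 and the E2F homologue efl-1. For ajm-1 a tRNA gene lay 2 bp from the summit. The highest of the 8, cfz-2, had a signal of 139.3, just under the weakest IDR peak. Its region overlapped regions ranked 7208 in replicate 1 and 453 in replicate 2. Those of ajm-1 and wdr-23 also differed, with 27090 and 16114 in replicate 1 and 732 and 1180 in replicate 2. For the rest of the 8 the ranks were from 1002 to 3329 in both replicates.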

How the data were processed

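Anti-GFP ChIP-seq regions from 2 biological replicates of early embryos were analysed from the deposited ce11 lists; the ce10 lists were not used. Per the deposited file descriptions, the authors made each list from alignments and a control alignment, and the pooled list from both replicates' alignments. Each list gives the authors' signal per region, whose scale is not stated, so regions were ranked by signal within a list and signal was not compared between lists. The deposited −log10 q value was used for an alternative ranking only. It was at least 1.99 in the IDR list and fell to 0.0308 in the pooled list. The peak caller, the aligner, read length, the IDR threshold and the handling of reads with several alignments are each not given in the sources used here. Depth is unknown.

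Transcript 5' ends came from Ensembl release 115 (WBcel235) and sequence from the RefSeq copy of that assembly. Positions are 1-based. A distance is from the summit to the nearest 5' end of the gene that puts it in the window. A region overlapped another if they shared at least 1 bp. Repeated sequence is the share of 31-base stretches of a window found more than once in the genome on either strand. Motifs were searched in the 101 bp centred on the summit. Region placement and ranking were tested on simulated regions with known answers. Python 3.11.15, numpy 2.4.6, pandas 2.3.3, scipy 1.17.1 and matplotlib 3.10.9 were used.

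With 1 group of 2 samples no conditions could be compared and no test was made. Counts of genes with a region were set beside the same counts over all protein-coding genes. The genes, the pathway lists and the hexamers were chosen with earlier results of these data known. Values are given in full for the 12 genes whose promoter region ranks highest and for the 7 zygotic endomesoderm genes, for the others as ranges, ranks and counts, and outside the 54 for listed genes in the top 2000. One listed gene, mom-3, was not matched to the annotation. The alternatives changed the window, the 5' ends used, overlap in place of the summit, shared regions, small RNA genes, the ranking column and the replicate, and a search of gene bodies was added after the lit-1 peak had been seen.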

Additional observations from a re-analysis of the deposited data

How the results depend on the processing

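A promoter region in the pooled list was found for 28 of the 54 genes, and for 21 to 34 under the other windows, rules and the added gene-body search. The share of all protein-coding genes moved as well, from 38.4% to between 24.3% and 50.1%. Both the lowest count and the lowest share came with the narrow window from 500 bp upstream to 100 bp downstream. From a single replicate's list the count of the 54 genes was 27 to 28. The count of promoter regions in the IDR list was 0 under every other window and rule tried, against 1.11% to 2.57% of all genes. It was 0 to 1 when the top 642 regions of a single replicate took the list's place, against 1.52% to 1.91%. The 1 was elt-6 without replicate 2. The count in the top 5000 was 10. It was 5 with summits from 500 bp upstream to 100 bp downstream, 4 in the top 2000 and 18 in the top 10000, and 8 to 12 under the other alternatives, of which leaving out a replicate gave 9 to 12. The shares of all protein-coding genes were 10.1%, then 6.47%, 4.99%, 17% and 8.29% to 13.9% in the same order. Leaving out a replicate gave 9.15% to 10.4% of all genes. The median rank was 7856. It was 12797 with the narrow window and 5899 to 8314.5 without a replicate. Under the rest it was 7286.5 to 8312, with 7872 when regions were ranked by the −log10 q value. The medians over all genes with a promoter region were 12027.5, 11455 to 12044 and 11194.5 to 12393 in the same order. The cause of these shifts was not tested. No paired analysis was possible because the samples form 1 group.

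The lists hold no read counts, so how deep sequencing limits the weak ranks is unknown. Most of the regions described are below the IDR threshold, and the list they come from includes background. The −log10 q values of the promoter regions of the 28 regulators are at most 1.60. In whole embryos, binding in a small lineage and weak binding throughout cannot be told apart, and the tagged protein comes from a transgene.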

Other observations

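By chromosome, the number of the 54 genes with a promoter region in the pooled list varied as follows. On chromosome III, which carries 19 of the 54 genes, 12 had one, against 49.1% of all protein-coding genes there. On chromosome IV it was 5 of 6 (35.4% of all genes), on chromosome II 4 of 8 (40.8%) and on chromosome I 2 of 3 (48.3%). On chromosome V it was 3 of 9 (26.9%) and on chromosome X 2 of 9 (39.6%). The counts per chromosome are small and no test was made of them.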
